A study of Mus musculus with 12 samples.

Results

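The genes described here were the enzymes and carriers of glycolysis and of the pentose phosphate pathway. They were taken as the 36 gene symbols of a list of these steps, and all 36 were found among the 50674 genes of the deposited count table. Of these, 34 passed the filter on low counts. Eno2 (the neuronal enolase) and Ldhb (the lactate dehydrogenase subunit of oxidative tissues) did not, with 54 and 33 counts over all 12 libraries, and they were not tested. Polyadenylated RNA was sequenced from natural killer (NK) cells, cytotoxic lymphocytes that were taken from mouse spleen and expanded in culture with the cytokine IL-2. There were 3 biological replicates in each of 4 groups. Wild-type cells and Mirc11-/- cells, both labelled strain C57BL/6, were either left untreated or stimulated for 6 h through NKG2D, an activating receptor of NK cells. Mirc11 is a cluster of microRNA genes whose products are miR-23a together with miR-27a and miR-24, and it is deleted in the Mirc11-/- cells. The labels name no Cre driver and do not say how the cells were purified. Expansion in IL-2 was shared by every group.

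Glycolysis splits glucose into pyruvate and yields ATP and NADH in the cytosol. Pyruvate is reduced to lactate and exported, or it enters the mitochondrion and feeds the pyruvate dehydrogenase complex. The pentose phosphate pathway branches off at glucose 6-phosphate, makes NADPH and the ribose for nucleotides, and returns its sugars to glycolysis. Cytokine-expanded NK cells are known to use glycolysis heavily, and several of its genes are known targets of HIF-1 and of Myc, transcription factors of the hypoxia response and of growth.

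The libraries held 15139281 to 25342991 counts. Levels are given as CPM, the gene's counts relative to the library total after scaling by TMM factors (the usual CPM unit). The precursor of miR-27a had 0 to 4 counts in the wild-type libraries and 0 in each Mirc11-/- library, so at this depth it checked the genotype labels only weakly. The 10 NK cell markers summed to 11460 to 13790 CPM in unstimulated wild-type cells and 12380 to 13430 in unstimulated Mirc11-/- cells. They summed to 8358 to 9748 CPM in stimulated wild-type cells and 4832 to 7452 in stimulated Mirc11-/- cells. Most of these sums came from the granule genes Gzmb and Prf1, which fell on stimulation. The markers did not move as 1: Ncr1, Klrb1c, Nkg7 and Eomes also fell in both genotypes, Tbx21 rose in both, Klrd1 and Klrk1 rose in wild-type cells, and Il2rb passed in neither. T cell, B cell, macrophage, dendritic cell, neutrophil and erythroid lists each summed to at most 128.5 CPM in any library, with no listed marker at 0 in all 12. The B cell list was at 57.1 to 73.2 CPM in unstimulated and 102 to 129 in stimulated libraries. The dendritic cell list was at 10.1 to 14.8 and 22.3 to 33.04. The T cell list was at 37.6 to 65.0 CPM in unstimulated wild-type and 65.1 to 109.5 in unstimulated Mirc11-/- libraries. With stimulation it was at 45.1 to 71.1 and 73.5 to 93.3. The neutrophil and mast cell list was at 45.1 to 59.1 CPM in wild-type and 20.6 to 30.0 in Mirc11-/- libraries without stimulation. With stimulation it was at 40.03 to 48.02 and 10.55 to 20.11. The part of these lists in the results was not tested. Reads in vomeronasal receptor genes, which NK cells are not known to use, summed to 13.6 to 17.4 CPM in unstimulated libraries of both genotypes and to 24.8 to 41.5 in stimulated wild-type libraries. In stimulated Mirc11-/- replicates 1, 2 and 3 they summed to 85.4, 49.1 and 59.1 CPM. This level therefore moved with stimulation and with the loss of Mirc11 in stimulated cells, and so with every comparison that uses the stimulated Mirc11-/- libraries. In bulk RNA, fewer cells of a type and less RNA per cell cannot be told apart.

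Sequences are shown for the mature microRNAs of the Mirc11 cluster, for their matches in 3' untranslated regions and for promoters of some members. A link between these sequences and the measured differences was not tested. The mature microRNAs of the cluster (RefSeq, GRCm38.p6, chromosome 8) carry their seeds, bases 2 to 8, in capitals.
mmu-miR-23a-3p, chr8:84208563-84208583 (plus strand): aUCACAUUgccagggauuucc
mmu-miR-27a-3p, chr8:84208727-84208747 (plus strand): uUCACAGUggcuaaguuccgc
mmu-miR-24-3p, chr8:84208875-84208896 (plus strand): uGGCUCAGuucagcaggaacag
The seeds of these microRNAs differ from one another. Whether genes outside the cluster make a microRNA with the same sequence or seed was not examined. A match to the seed of any of them occurred in the longest annotated 3' untranslated region of 12 of 34 tested members (35.3%), against 41.4% of 12787 tested genes. Matches to miR-24 were found in 7 members (20.6%, against 19.3% of genes), to miR-23a in 3 (8.82%, against 16.9%) and to miR-27a in 2 (5.88%, against 18.2%). Matches in other members are not shown, among them those to miR-24 in Slc16a3 and Tpi1 and to miR-27a in Pgm2. The sites in Pdk1, Pdk2, Pfkfb3, Pfkl and Slc16a1 were the following, with the 7 bases that pair with the seed in capitals.
Pdk1 and miR-23a-3p, chr2:71902145-71902151 (GRCm38, plus strand): atggagacAATGTGAcaaagctc
Pdk2 and miR-23a-3p, chr11:95026258-95026264 (GRCm38, minus strand): acagatgaAATGTGA
Pfkfb3 and miR-23a-3p, chr2:11472398-11472404 (GRCm38, minus strand): ctttgcccAATGTGAtttcacat
Pfkl and miR-24-3p, chr10:77987667-77987673 (GRCm38, minus strand): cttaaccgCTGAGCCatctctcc
Pfkl and miR-24-3p, chr10:77987584-77987590 (GRCm38, minus strand): agggagacCTGAGCCcttagaga
Pfkl and miR-24-3p, chr10:77987387-77987393 (GRCm38, minus strand): atgaagggCTGAGCCctggccag
Slc16a1 and miR-24-3p, chr3:104656683-104656689 (GRCm38, plus strand): ctgtaccaCTGAGCCacaaccca
Slc16a1 and miR-24-3p, chr3:104658060-104658066 (GRCm38, plus strand): tgggcactCTGAGCCttgtccgt
Pfkl had 3 matches to miR-24 and Slc16a1 had 2, while Pfkfb3, Pdk2 and Pdk1 had 1 match each to miR-23a, and the Pdk2 match lies at the very end of its region. A match is a stretch of letters and not evidence of binding.

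Promoters are shown as the 250 bases before the RefSeq start, with ACGTG or GCGTG in capitals on either strand. These are the core letters that HIF-1 can bind, and CACGTG, the E-box that Myc can bind, contains ACGTG on both strands. The sequences belong to the 3 members with the widest replicate spread whose RefSeq start lay near the annotated gene start (Pdk1, Tpi1 and Pgm2), to a member with a very narrow spread (Pfkfb3) and to the member that differed most clearly between genotypes (Slc16a1).
Pdk1, chr2:71872974-71873223 (GRCm38.p6, plus strand): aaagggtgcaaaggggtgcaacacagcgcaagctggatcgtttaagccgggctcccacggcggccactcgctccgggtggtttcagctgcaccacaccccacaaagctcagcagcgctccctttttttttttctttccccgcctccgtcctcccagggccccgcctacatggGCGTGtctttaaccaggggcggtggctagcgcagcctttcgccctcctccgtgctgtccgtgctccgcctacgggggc
Tpi1, chr6:124814159-124814408 (GRCm38.p6, minus strand): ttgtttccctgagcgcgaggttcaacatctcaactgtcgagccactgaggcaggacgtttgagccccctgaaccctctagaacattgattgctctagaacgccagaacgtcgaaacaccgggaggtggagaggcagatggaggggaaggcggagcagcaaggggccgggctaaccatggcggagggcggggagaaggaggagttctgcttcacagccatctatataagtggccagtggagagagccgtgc
Pgm2, chr4:99929201-99929450 (GRCm38.p6, plus strand): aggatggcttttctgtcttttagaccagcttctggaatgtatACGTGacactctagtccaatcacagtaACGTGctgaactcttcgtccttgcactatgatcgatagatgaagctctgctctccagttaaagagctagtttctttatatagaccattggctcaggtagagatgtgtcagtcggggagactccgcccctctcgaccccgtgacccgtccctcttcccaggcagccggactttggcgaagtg
Pfkfb3, chr2:11553930-11554179 (GRCm38.p6, minus strand): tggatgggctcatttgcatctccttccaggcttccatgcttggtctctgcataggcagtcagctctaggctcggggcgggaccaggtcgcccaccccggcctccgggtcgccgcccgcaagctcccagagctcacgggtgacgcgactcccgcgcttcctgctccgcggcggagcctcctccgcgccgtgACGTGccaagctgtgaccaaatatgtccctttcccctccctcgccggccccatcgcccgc
Slc16a1, chr3:104638414-104638663 (GRCm38.p6, plus strand): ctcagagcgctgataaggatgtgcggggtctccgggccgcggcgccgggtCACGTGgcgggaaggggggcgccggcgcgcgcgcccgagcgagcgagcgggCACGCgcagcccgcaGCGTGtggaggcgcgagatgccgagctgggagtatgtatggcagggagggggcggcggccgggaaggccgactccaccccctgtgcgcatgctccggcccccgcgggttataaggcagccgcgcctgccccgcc
ACGTG occurred in 12 of 36 member promoters (33.3%, against 16.7% of 32536 promoters of the same length). GCGTG occurred in 20 (55.6%, against 28.3%), and CACGTG in 4 (11.1%, against 6.04%). Either core was in 28 promoters (77.8%, against 38.8% of all and 53.0% of the promoters of tested genes). For each motif alone, the share in promoters of tested genes was not computed. No match was found in the Tpi1 window. In stimulated Mirc11-/- libraries Tpi1 spanned 3.08-fold, Pdk1 3.10-fold and Pgm2 3.04-fold. Among the 19 members whose stimulated Mirc11-/- libraries spanned over 1.5-fold, 15 held a core, and among the 15 with a narrower span 12 did. A link between the letters and the span was not tested.

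In unstimulated wild-type cells several triose and lower glycolysis genes, and Ldha, were among the most abundant mRNAs. Others of these steps were not: Aldoc (12.6 CPM per kb) stood at rank 3046 and Bpgm (2.10) at rank 9551. Per kilobase of exon, Gapdh (356 CPM per kb), Aldoa (335), Pgk1 (261), Eno1 (243), Ldha (229) and Pkm (227) stood between ranks 138 and 208 of 17401 tested genes with a length. The pentose phosphate genes Tkt (50.2 CPM per kb) and Taldo1 (40.03) were above G6pdx (22.9), the enzyme that commits glucose 6-phosphate to the pathway. Pfkfb3 (1.46), Pfkfb4 (0.737) and Pdk2 (0.366) were the least abundant of the tested members by this measure. Eno2 and Ldhb had 0 to 14 and 0 to 9 counts per library, with 0 counts in 3 libraries and in 1. A count of 0 allows up to 3 counts, or 0.118 to 0.189 CPM.

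Stimulation of wild-type cells changed few members. In edgeR's quasi-likelihood fit over all genes, 2 of 34 rose and 3 fell at an adjusted p under 0.05. These shares, 5.88% and 8.82%, stand beside 16.1% of all 17457 tested genes that rose and 15.7% that fell. The median log2 fold change of the members was 0.04, and that of all genes was 0.02. Among Mirc11-/- libraries 2 members rose and 10 fell (5.88% and 29.4%), beside 23.5% and 22.1% of all genes, with a median of -0.24 for the members and 0.03 for all genes. The 5 members that changed in wild-type cells changed in the same direction in Mirc11-/- cells, where 7 more fell.

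**Figure D1:**
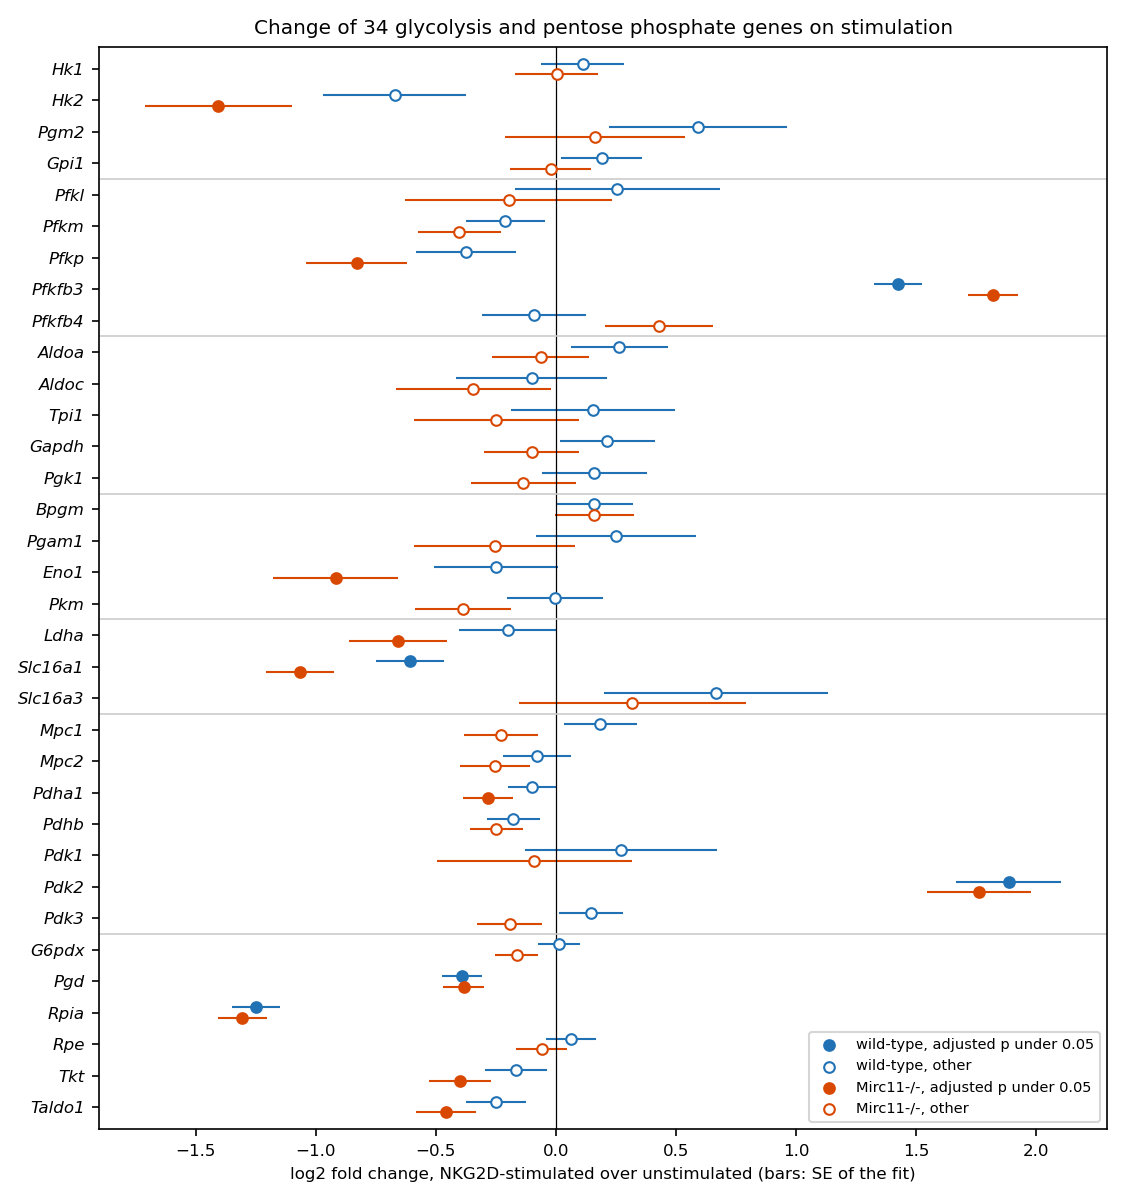
Log2 fold change on NKG2D stimulation (horizontal axis) of each of the 34 tested members in wild-type (blue) and Mirc11-/- cells (orange), with the standard error of the fit as bars and grey lines between the steps of the pathway. Filled points passed the edgeR threshold: Pfkfb3 and Pdk2 lie far to the right in both genotypes and Rpia far to the left, while most others lie near 0.

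Among the genes of glucose entry, hexokinase 2 (Hk2), the inducible isoenzyme that phosphorylates glucose, had 106, 105 and 110.1 CPM in unstimulated wild-type replicates 1 to 3 and 53.3, 52.3 and 96.6 CPM after stimulation. It had 92.0, 81.8 and 89.3 CPM in unstimulated Mirc11-/- cells and 22.7, 50.3 and 26.3 CPM after stimulation. In both genotypes every stimulated library was below every unstimulated one, but wild-type replicate 3 and Mirc11-/- replicate 2 stood well above their partners. Hk2 fell by 1.41 ± 0.31 (SE) on the log2 scale in Mirc11-/- cells (edgeR adjusted p = 0.00422). In wild-type cells the value was -0.67 ± 0.30, with an interval from -1.34 to -0.01, and it did not pass (adjusted p = 0.114). Without stimulated wild-type replicate 3 it was -1.03 and passed, with an edgeR adjusted p of 0.0161, and it also passed without stimulated Mirc11-/- replicate 2 (-0.68, 0.023). Hk1, the constitutive hexokinase, had log2 fold changes of 0.11 ± 0.17 and 0.00 ± 0.17.

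The share of Hk2 in the hexokinase mRNA of each library was compared as well. Hk2 was 57.4 to 60.6% of the Hk1 and Hk2 total per kilobase in unstimulated wild-type cells and 41.8 to 47.9% after stimulation. Its share in Mirc11-/- cells was 61.7 to 62.1% and then 33.03 to 42.3%. The mean shares differed by -14.0 and -24.9 percentage points, and the groups did not overlap in either genotype. With 3 libraries against 3, an exact two-sided permutation test can give no p below 0.1, the value found in both cases (0.167 after adjustment over 15 such comparisons). Between genotypes the stimulated shares overlapped (exact permutation p = 0.2).

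Gpi1, which converts glucose 6-phosphate to fructose 6-phosphate, had 361 to 714 CPM over all 12 libraries and changed by 0.19 ± 0.17 and -0.02 ± 0.17. Pgm2 in this table is the phosphoglucomutase gene on chromosome 4 that RefSeq calls Pgm1; it joins glycogen to glycolysis. Its levels were 39.0 to 54.7 CPM in unstimulated and 48.3 to 94.4 CPM in stimulated wild-type libraries, a log2 fold change of 0.59 ± 0.37 that did not pass.

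The phosphofructokinases carry the committed step of glycolysis. Pfkp, the platelet type and the most abundant of them here, had 454, 512 and 418 CPM in unstimulated and 315, 279 and 474 CPM in stimulated wild-type libraries. In Mirc11-/- libraries it had 394, 357 and 424 CPM before and 167, 289 and 206 CPM after stimulation. The wild-type groups overlapped through replicate 3, and the Mirc11-/- groups did not. Pfkp fell by 0.83 ± 0.21 on the log2 scale in Mirc11-/- cells (edgeR adjusted p = 0.0067), while the wild-type value was -0.37 ± 0.21 (adjusted p = 0.196). Without stimulated wild-type replicate 3 the wild-type value was -0.64 and passed (edgeR adjusted p = 0.026).

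Pfkl, the liver type, had 90.5, 103 and 80.3 CPM in unstimulated and 106, 67.0 and 154 CPM in stimulated wild-type libraries. In Mirc11-/- libraries it had 75.1, 67.7 and 93.2 CPM and then 33.6, 115 and 57.2 CPM. The stimulated libraries of each genotype lay on both sides of the unstimulated ones, and its log2 fold changes were 0.26 ± 0.43 and -0.20 ± 0.43. Pfkm, the muscle type, was at 5.33 to 13.0 CPM and changed by -0.21 ± 0.16 and -0.40 ± 0.17.

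Pfkfb3 makes fructose 2,6-bisphosphate, the strongest activator of phosphofructokinase, and was one of only 2 members that rose on stimulation in this fit. It had 12.2, 9.89 and 10.98 CPM in unstimulated and 27.0, 30.2 and 31.9 CPM in stimulated wild-type libraries. In Mirc11-/- libraries it had 10.6, 10.5 and 9.31 CPM and then 36.4, 35.8 and 35.3 CPM. The groups were far apart, and the stimulated Mirc11-/- libraries were almost equal to one another. The rise was 2.68-fold in wild-type cells (1.42 ± 0.10 on the log2 scale, edgeR adjusted p = 4.75e-07) and 3.54-fold in Mirc11-/- cells (1.82 ± 0.10, adjusted p = 6.11e-08). Its relative Pfkfb4 was at 2.40 to 4.66 CPM and changed by -0.09 ± 0.22 and 0.43 ± 0.22. Pfkfb3 made up 60.7 to 70.2% of the pair per kilobase before and 81.6 to 88.6% after stimulation of wild-type cells.

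**Figure D2:**
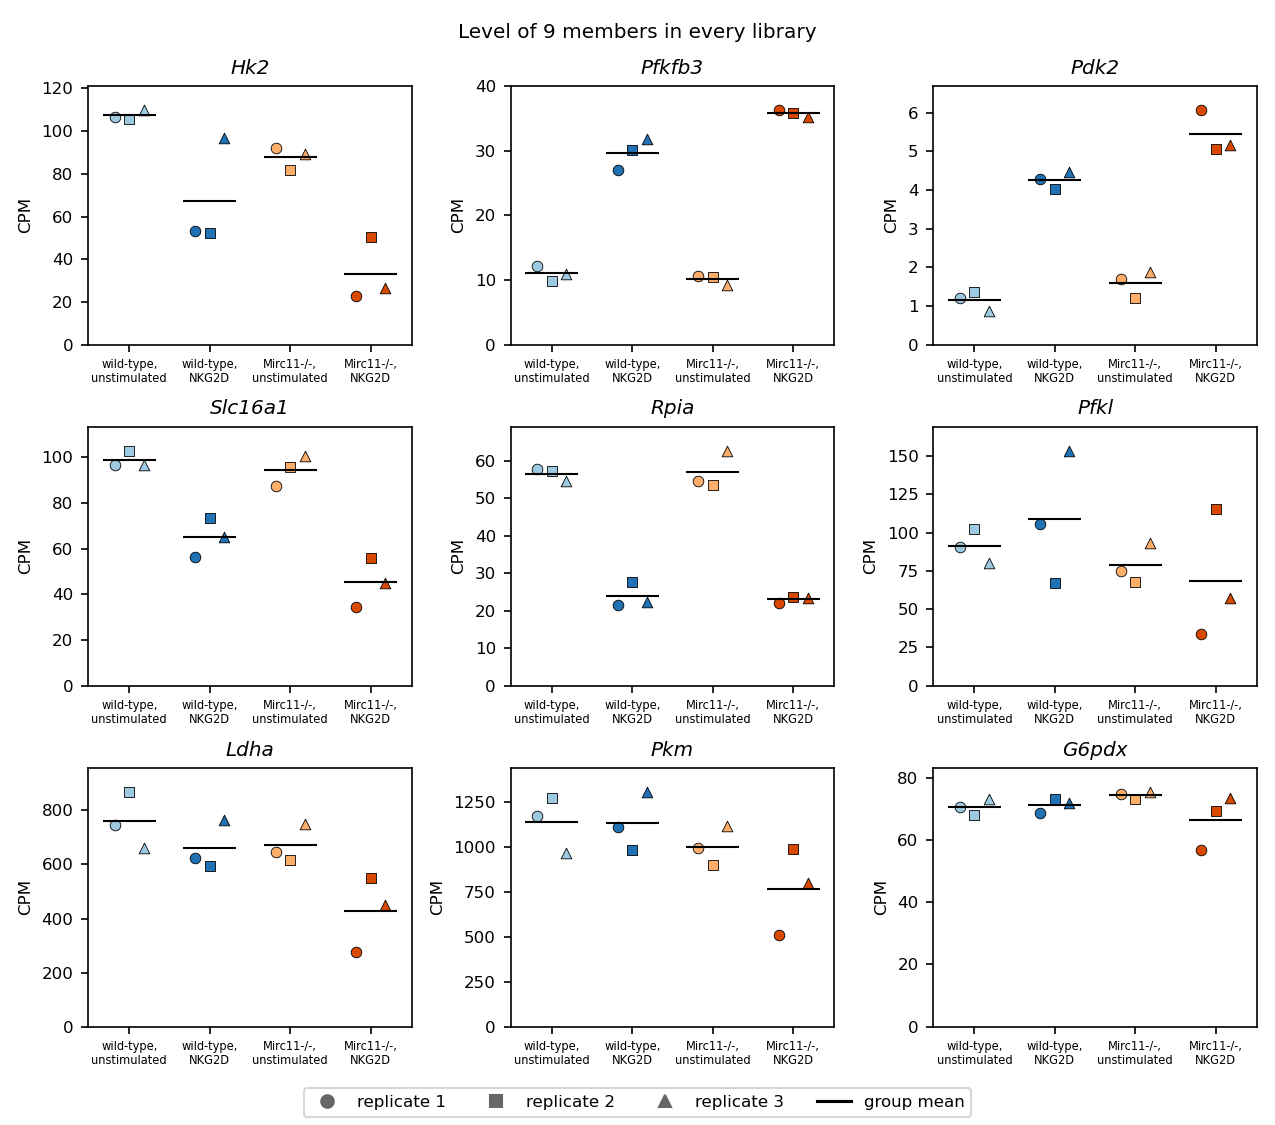
Level in CPM (vertical axes, from 0) of 9 members in each library of the 4 groups; marker shapes give the replicate number and lines the group means. Pfkfb3 and Pdk2 are higher and Rpia lower in every stimulated library, and Pfkl in stimulated Mirc11-/- cells ranges from 33.6 to 115 CPM.

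None of the 5 genes of the triose stage passed the test in either genotype. They were Aldoa and Aldoc (aldolases), Tpi1 (triose phosphate isomerase), Gapdh, and Pgk1, the enzyme that forms the first ATP. Their log2 fold changes were between -0.10 and 0.26 in wild-type cells and between -0.34 and -0.06 in Mirc11-/- cells. The median standard error of these values was 0.22 in both genotypes. Gapdh, often used as a reference gene, was at 1131 to 1647 CPM in unstimulated and 1618 to 1811 CPM in stimulated wild-type libraries. In stimulated Mirc11-/- libraries it had 811, 1350.1 and 1259.6 CPM.

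In lower glycolysis Eno1, the main enolase, had 1305, 1473 and 1147 CPM in unstimulated and 857, 1003 and 1441 CPM in stimulated wild-type cells. It had 1143, 1009 and 1292 CPM in unstimulated and 379, 859 and 586 CPM in stimulated Mirc11-/- cells, with no overlap between the latter groups. It fell by 0.92 ± 0.26 on the log2 scale in Mirc11-/- cells (edgeR adjusted p = 0.0131), and the wild-type value was -0.25 ± 0.26. Eno1 shares 28.5% of its 31-base words with other genes. When its counts were summed with those of its near-identical copies (Eno1b and a pseudogene) the fall in Mirc11-/- cells was -0.49 and did not pass (adjusted p = 0.108). It also missed the threshold without stimulated Mirc11-/- replicate 1 (-0.67, edgeR adjusted p = 0.051).

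Pkm, which makes pyruvate and the last ATP of the pathway, had 1170.2, 1269 and 965 CPM in unstimulated and 1108, 982 and 1306 CPM in stimulated wild-type libraries. In Mirc11-/- libraries it had 991, 895 and 1115 CPM and then 511, 986 and 797 CPM. The groups overlapped in both genotypes, and the log2 fold changes were 0.00 ± 0.20 and -0.39 ± 0.20. Pgam1 (phosphoglycerate mutase) changed by 0.25 ± 0.33 and -0.26 ± 0.33, and Bpgm (bisphosphoglycerate mutase), at 5.42 to 9.13 CPM, by 0.16 in both. Eno2 was at 0 to 0.42 CPM in the other groups and at 0.81, 0.35 and 0.51 CPM in stimulated Mirc11-/- replicates 1 to 3. These are only 14, 6 and 9 counts. The vomeronasal levels of these libraries had the same order, and a link was not tested.

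At the branch to lactate, Ldha, the lactate dehydrogenase subunit of glycolytic cells, had 745, 869.5 and 662 CPM in unstimulated and 623, 594 and 764 CPM in stimulated wild-type cells. It had 647, 618 and 751 CPM in unstimulated and 277, 551 and 450.5 CPM in stimulated Mirc11-/- cells. The Mirc11-/- groups did not overlap, and Ldha fell by 0.66 ± 0.20 on the log2 scale there (edgeR adjusted p = 0.0185). In wild-type cells it changed by -0.20 ± 0.20, with an interval from -0.64 to 0.24. Without unstimulated Mirc11-/- replicate 3 the fall was -0.58 and no longer passed (edgeR adjusted p = 0.0641).

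Slc16a1 encodes MCT1, a carrier of lactate and pyruvate across the plasma membrane. It had 96.7, 103 and 96.8 CPM in unstimulated and 56.2, 73.5 and 65.0 CPM in stimulated wild-type cells. The Mirc11-/- cells had 87.4, 95.7 and 101 CPM and then 34.7, 55.8 and 45.1 CPM. No stimulated library reached an unstimulated one in either genotype. Slc16a1 fell by 0.61 ± 0.14 (edgeR adjusted p = 0.00501) and by 1.07 ± 0.14 (adjusted p = 6.12e-05) on the log2 scale, and it passed in all 12 fits that left out 1 library in each genotype. Fitted beside the vomeronasal level, its values were -0.08 (edgeR adjusted p = 0.764) and -0.03 (adjusted p = 0.971), and neither passed.

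Slc16a3 encodes MCT4, the carrier of strongly glycolytic cells, and had 70.1, 84.2 and 47.7 CPM before and 109, 71.2 and 140.3 CPM after stimulation of wild-type cells. Its log2 fold changes, 0.67 ± 0.47 and 0.32 ± 0.47, did not pass. Its share of the Slc16a1 and Slc16a3 total per kilobase was 29.1 to 40.5% in unstimulated and 44.6 to 64.2% in stimulated wild-type cells. The share in Mirc11-/- cells was 23.7 to 32.3% and then 38.8 to 60.2%. Neither pair of groups overlapped (exact permutation p = 0.1 in each, the smallest these numbers allow).

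**Figure D3:**
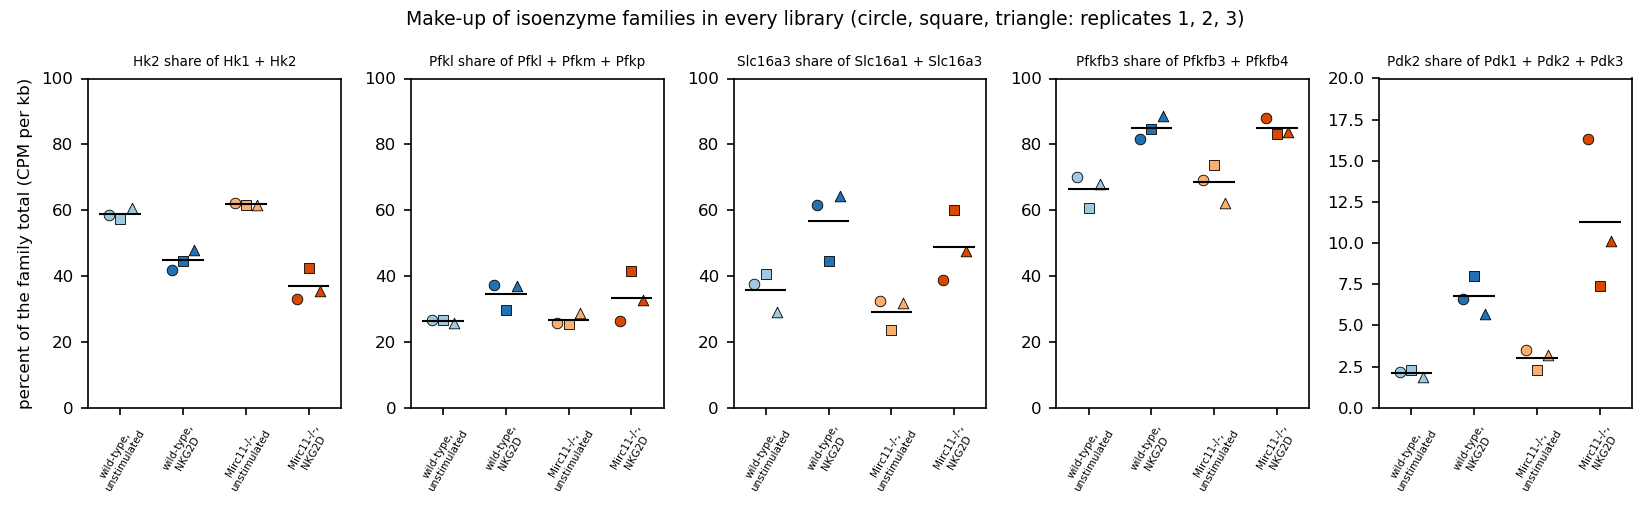
Share of 1 isoenzyme in its family (percent of the family's CPM per kilobase, vertical axes from 0, the Pdk2 axis ending at 20%) in each library of the 4 groups; lines are group means. Hk2 shares are 41.8 to 47.9% and 33.03 to 42.3% in stimulated wild-type and Mirc11-/- libraries, below the unstimulated ones, while Slc16a3, Pfkfb3 and Pdk2 shares are higher in every stimulated library than in the unstimulated ones of that genotype.

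For pyruvate entry into the mitochondrion, Pdk2 rose. It is one of the kinases that switch off pyruvate dehydrogenase, and it had 1.22, 1.37 and 0.88 CPM in unstimulated and 4.28, 4.03 and 4.47 CPM in stimulated wild-type cells. In Mirc11-/- cells it had 1.71, 1.20 and 1.87 CPM and then 6.09, 5.07 and 5.17 CPM. The groups were well apart in both genotypes. The rise was 3.70-fold (1.89 ± 0.22 on the log2 scale, edgeR adjusted p = 2.93e-05) and 3.39-fold (1.76 ± 0.22, adjusted p = 2.90e-05). Per kilobase Pdk2 reached 1.60 to 1.92 CPM in stimulated Mirc11-/- cells, where vomeronasal receptor genes had 0.0261 to 0.045 CPM. It stayed the least abundant of the 3 kinases measured, at 5.7 to 8.0% of their total in stimulated wild-type cells and 7.4 to 16.3% in stimulated Mirc11-/- cells.

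The other kinases, Pdk1 and Pdk3, changed by 0.27 ± 0.40 and 0.15 ± 0.13 in wild-type and -0.09 ± 0.41 and -0.19 ± 0.14 in Mirc11-/- cells. Pdha1, the catalytic subunit of pyruvate dehydrogenase, had 99.8 to 107 CPM in unstimulated and 92.3 to 99.6 CPM in stimulated wild-type libraries. It fell by 0.28 ± 0.10 on the log2 scale in Mirc11-/- cells (edgeR adjusted p = 0.0377) from 94.4, 103 and 107 CPM to 68.5, 92.7 and 89.1 CPM. That call was lost without unstimulated Mirc11-/- replicate 2 (-0.29, edgeR adjusted p = 0.0794), unstimulated replicate 3 (-0.26, 0.112) or stimulated replicate 1 (-0.16, 0.1). Pdhb, its partner subunit, and Mpc1 and Mpc2, which form the mitochondrial pyruvate carrier, did not pass in either genotype and had log2 fold changes between -0.25 and 0.19.

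The pentose phosphate pathway was the step with the tightest measurements, with a median standard error of 0.10 in each genotype. G6pdx, its entry enzyme, had 70.7, 67.9 and 73.1 CPM in unstimulated and 68.6, 73.2 and 71.8 CPM in stimulated wild-type cells. G6pdx in Mirc11-/- cells was at 74.6, 73.3 and 75.5 CPM and then 56.8, 69.2 and 73.5 CPM. The groups overlapped in both genotypes, and its log2 fold changes were 0.01 ± 0.09 (interval -0.18 to 0.20) and -0.16 ± 0.09 (interval -0.36 to 0.03). Pgd, the other enzyme of the oxidative branch, fell by 0.39 ± 0.08 (edgeR adjusted p = 0.00311) and by 0.38 ± 0.08 (adjusted p = 0.00229) on the log2 scale. Its levels were 65.4 to 68.7 CPM and then 49.0 to 55.2 CPM in wild-type cells, and 62.0 to 67.2 CPM and then 45.4 to 54.1 CPM in Mirc11-/- cells.

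Rpia, the isomerase that forms ribose 5-phosphate, showed the largest fall among the members in wild-type cells. It had 58.0, 57.2 and 54.7 CPM in unstimulated and 21.4, 27.7 and 22.3 CPM in stimulated wild-type cells. In Mirc11-/- cells it had 54.7, 53.6 and 62.8 CPM and then 22.0, 23.7 and 23.5 CPM. The stimulated libraries of both genotypes lay together, far below the unstimulated ones. Rpia fell by 1.25 ± 0.10 (edgeR adjusted p = 1.23e-06) and by 1.31 ± 0.10 (adjusted p = 6.02e-07) on the log2 scale. Rpe, the epimerase that uses the same substrate, was at 38.9 to 53.4 CPM and changed by 0.06 ± 0.10 and -0.06 ± 0.11.

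Tkt (transketolase) and Taldo1 (transaldolase) return pentoses to glycolysis. Tkt had 363, 363 and 391 CPM in unstimulated and 216, 322 and 310.0 CPM in stimulated Mirc11-/- cells, and Taldo1 had 84.8, 79.7 and 89.8 CPM and then 47.7, 70.0 and 67.4 CPM. Both pairs of groups were without overlap, and replicate 1 was the lowest for each. They fell by 0.40 ± 0.13 (edgeR adjusted p = 0.0215) and by 0.46 ± 0.13 (adjusted p = 0.00928) on the log2 scale there. In wild-type cells they changed by -0.16 ± 0.13 and -0.25 ± 0.13 and did not pass. The Tkt call was lost without unstimulated Mirc11-/- replicate 3 (edgeR adjusted p = 0.0671).

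The difference between the responses of the genotypes, tested as an interaction in the same fit, passed for none of the 34 members, beside 0% of all genes higher and 0.0115% lower. The lowest edgeR adjusted p was 0.445, and 2 members (5.88%, beside 10.6% of all genes) had an unadjusted p under 0.05, a smaller share than over all genes. These were Pfkfb3, whose rise was larger in Mirc11-/- cells by 0.40 ± 0.14 on the log2 scale (unadjusted p = 0.0147), and Slc16a1, whose difference was -0.46 ± 0.20 (unadjusted p = 0.0376). DESeq2 also called none. For Hk2 the difference was -0.73 with an interval from -1.68 to 0.21, and for Rpia -0.06 with an interval from -0.36 to 0.25. The extra falls seen past the threshold only in Mirc11-/- cells were therefore not shown to differ from the wild-type response. Values below 0 were found for 31 of 34 members, with a median of -0.27, and the median of all genes was -0.02.

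Without stimulation, the loss of Mirc11 changed no member past the threshold in edgeR or in DESeq2, beside 0.309% of all genes higher and 0.796% lower. Hk1 alone had an unadjusted p under 0.05, which is 2.94% of the members beside 9.21% of all genes. It had 108, 112 and 102 CPM in wild-type and 80.3, 72.6 and 79.1 CPM in Mirc11-/- cells. These groups did not overlap, and the log2 fold change was -0.48 ± 0.17 (edgeR adjusted p = 0.335). In a fit of only these 2 groups Hk1 (-0.48, adjusted p = 0.0042) and Hk2 (-0.30, adjusted p = 0.046) passed, beside 1.5% of all genes lower. The largest interval reached from -1.58 to 0.56, for Slc16a3. The 6 pentose phosphate genes lay between -0.07 and 0.08, with a median standard error of 0.10.

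In stimulated cells 1 member passed, Slc16a1, which was lower in Mirc11-/- cells by -0.52 ± 0.14 on the log2 scale (edgeR adjusted p = 0.0394). Its 34.7, 55.8 and 45.1 CPM stood against 56.2, 73.5 and 65.0 CPM in wild-type cells, without overlap by a margin smaller than either group's spread. Of all genes, 3.89% were higher and 5.13% lower past the threshold, and 1 of 34 members is 2.94%. The call held in 3 of the 12 fits that left out 1 library, with log2 fold changes from -0.71 to -0.36 over these fits.

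Values below 0 were found for 31 of the 34 members in this comparison, with a median of -0.49 against 0.02 for all genes, and 13 members (38.2%, beside 30.1% of all genes) had an unadjusted p under 0.05. Hk2 was 52.3 to 96.6 CPM in stimulated wild-type and 22.7 to 50.3 CPM in stimulated Mirc11-/- cells, a log2 fold change of -1.03 ± 0.30 (edgeR adjusted p = 0.0613). Eno1 (-0.86 ± 0.26), Pfkp (-0.69 ± 0.21), Pgk1 (-0.67 ± 0.22), Pfkm (-0.51 ± 0.17), Ldha (-0.63 ± 0.20), Gapdh (-0.58 ± 0.20), Pkm (-0.57 ± 0.20) and Hk1 (-0.58 ± 0.17) had edgeR adjusted p values from 0.053 to 0.0844. Eno1, Pgk1 and Gapdh were counted here without their near-identical copies. The pentose phosphate genes lay between -0.24 and -0.05, and none of them had an unadjusted p under 0.05. The members above 0 were Pfkfb3 (0.27 ± 0.10), Pdk2 (0.35 ± 0.20) and Pfkfb4 (0.28 ± 0.22), and none of these passed. Pfkfb3 and Pdk2 were also the 2 tested members whose stimulated Mirc11-/- libraries all lay above the wild-type ones. By this measure 15.8% of all genes were higher. Both hold a match to miR-23a, as does Pdk1 (-0.48 ± 0.40). The 2166 tested genes with such a match had a median of 0.018 in this comparison, against 0.023 for all genes. The part of the matches was not tested.

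**Figure D4:**
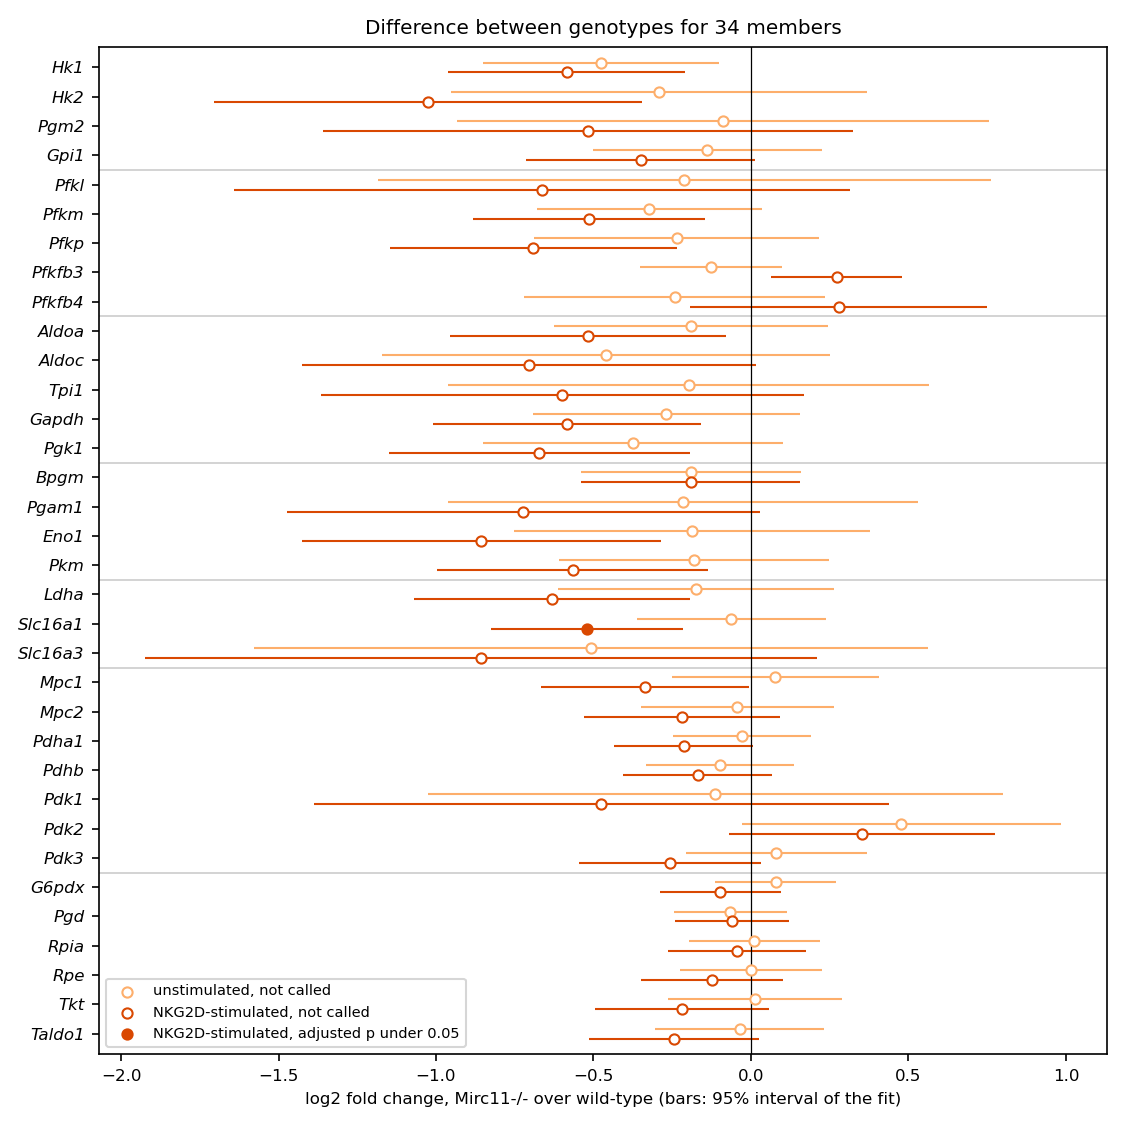
Log2 fold change of Mirc11-/- over wild-type cells (horizontal axis) for each of the 34 tested members without (light orange) and with stimulation (dark orange), with 95% intervals of the fit as bars. In stimulated cells 31 of 34 members lie left of 0 and only Slc16a1 (filled) passed the edgeR threshold; the pentose phosphate genes at the bottom lie between -0.24 and -0.05.

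The count of members called lower in stimulated Mirc11-/- cells depended on the fit. DESeq2 called 10 of 34 lower, beside 7.86% of all genes. Without stimulated Mirc11-/- replicate 2, edgeR called 15 lower, beside 6.82% of all genes, and without stimulated wild-type replicate 1 it called 3, beside 6.03%. By the simpler measure of groups that do not overlap, 8 members were lower and 2 higher, which are 23.5% and 5.88% of the members, beside 16.8% and 15.8% of all genes. With the vomeronasal receptor level as a covariate no member was called in this comparison, beside 0.115% of all genes lower, and Slc16a1 was at 0.03. In that fit 1 member was called for stimulation of Mirc11-/- cells, Pfkfb3, beside 1.7% of all genes higher and 1.51% lower. In wild-type cells 8 members rose and 1 fell, beside 11.5% and 10.7% of all genes. The calls in Mirc11-/- cells of Pdk2 (1.72, edgeR adjusted p = 0.117) and Rpia (-0.90, 0.0849) were lost, as were those of Pgd in both genotypes (-0.25, 0.199, in wild-type and -0.10, 0.844, in Mirc11-/- cells). The fall on stimulation of Mirc11-/- cells turned to values above 0 for Hk2, Pfkp, Eno1, Ldha, Pdha1, Tkt and Taldo1, none of which passed. The vomeronasal level was highest in stimulated Mirc11-/- cells, so its part in these results and that of the group cannot be told apart.

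The members moved together between replicates of a group, above all in stimulated Mirc11-/- cells. There, replicate 1 held the lowest value of 31 of 34 members and replicate 2 the highest of 30, while they held the lowest and the highest of 42.2% and 29.3% of all tested genes. The 36 members summed to 4392, 8321 and 6655 CPM in replicates 1 to 3, which was 0.466%, 0.824% and 0.652% of all counts. In stimulated wild-type cells the sums were 8974, 8583 and 11083 CPM, with replicate 3 highest for 23 members. In unstimulated cells they were 9523, 10548.5 and 8023 CPM in wild-type and 8140.3, 7291 and 9095 CPM in Mirc11-/- libraries. The ratio of highest to lowest replicate had a median over the members of 1.64 in stimulated Mirc11-/- cells and 1.18 to 1.27 in the other groups. Over all genes it was 1.33, and 1.19 to 1.21 in the others.

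**Figure D5:**
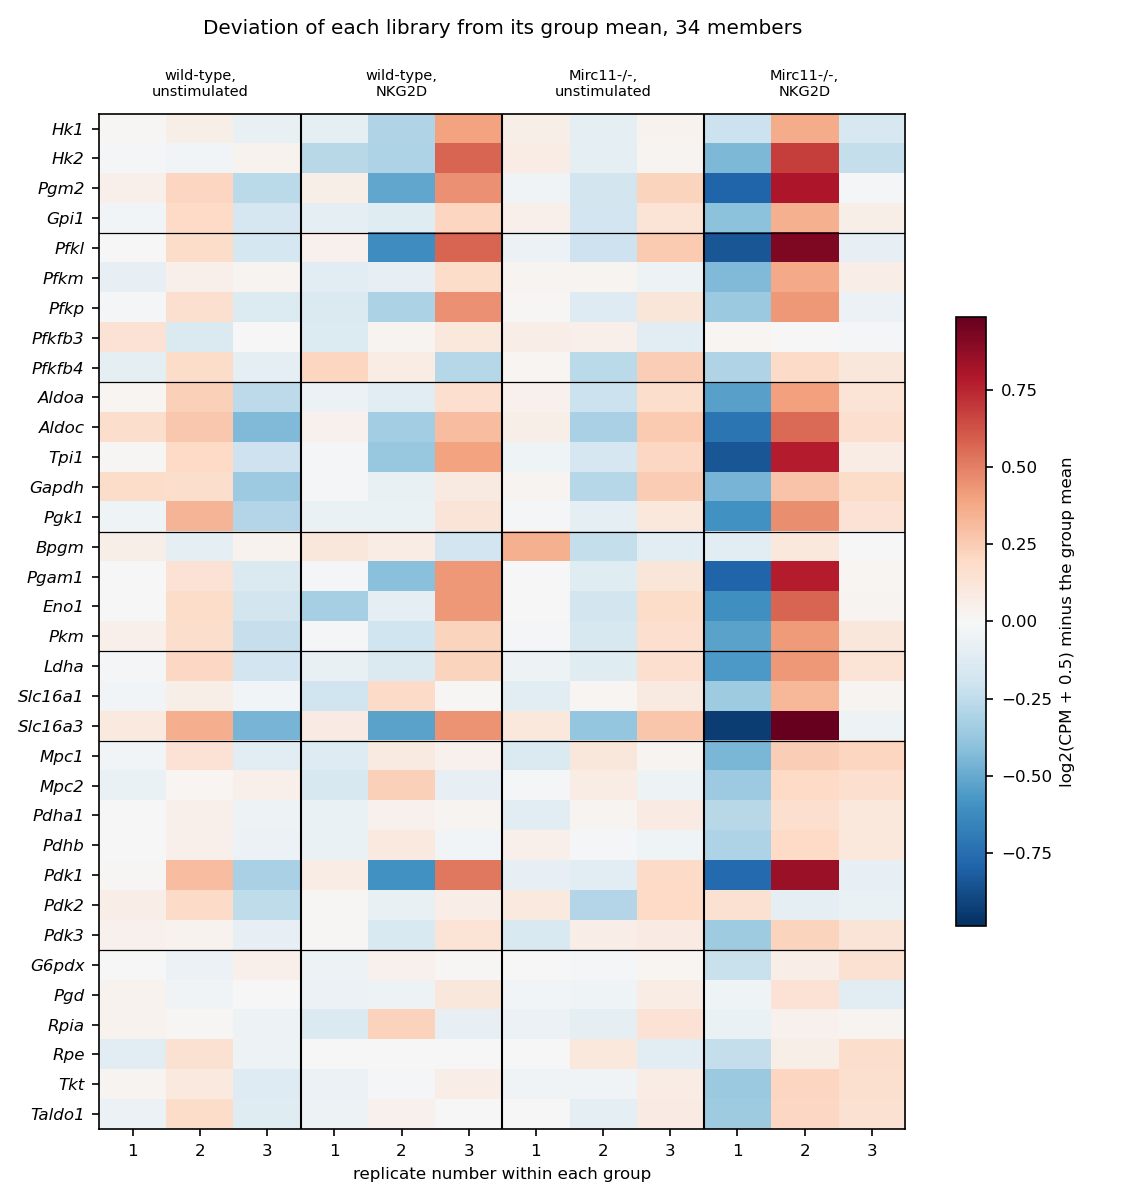
Deviation of log2(CPM + 0.5) from the mean of its group (colour) for the 34 tested members (rows, ordered by step) in the 12 libraries (columns). In stimulated Mirc11-/- cells the column of replicate 1 is blue in nearly all glycolysis rows and that of replicate 2 red, while Pfkfb3, Pdk2, Rpia and Pgd stay pale.

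The spread differed between steps. In stimulated Mirc11-/- cells the median ratio was 2.10 for lower glycolysis, 2.08 for the triose stage and 1.99 for lactate formation and export, but 1.49 for pyruvate entry and 1.31 for the pentose phosphate genes. The widest were Slc16a3 (3.84-fold, from 26.4 to 101 CPM), Pfkl (3.43), Pdk1 (3.10, from 25.7 to 79.5 CPM), Tpi1 (3.08, from 129.8 to 399.9 CPM), Pgm2 (3.04) and Pgam1 (2.96). The narrowest were Pfkfb3 (1.03), Rpia (1.08), Bpgm (1.18), Pgd (1.19) and Pdk2 (1.20). Several of the wide genes also spread in stimulated wild-type cells, where Pfkl spanned 2.29-fold, Pdk1 2.18-fold and Slc16a3 1.97-fold, with replicate 3 highest and replicate 2 lowest for each.

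A list of hypoxia-inducible genes that are not glycolytic (18 tested, such as Ndrg1, Kdm3a and Bnip3l) was measured beside them. In stimulated Mirc11-/- cells 17 of the 18 were highest in replicate 2 and 17 lowest in replicate 1. In stimulated wild-type cells 15 were highest in replicate 3 and 15 lowest in replicate 2. In unstimulated cells 14 were highest in wild-type replicate 2 and 11 in Mirc11-/- replicate 3, the libraries in which 25 members each were highest. The libraries high for the members were therefore the ones high for this list in all 4 groups. The vomeronasal level was highest in stimulated Mirc11-/- replicate 1 and lowest in replicate 2. In stimulated wild-type cells it was 41.5, 26.1 and 24.8 CPM in replicates 1 to 3, while the members were most often lowest in replicate 2 (18 members). The part of these levels in the spread was not tested.

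Around the members, the same hypoxia-inducible list rose on stimulation for 8 of 18 genes in wild-type and 7 of 18 in Mirc11-/- cells, and none fell. The counts in this and the following lists stand beside 16.1% of all tested genes that rose and 15.7% that fell in wild-type cells. In Mirc11-/- cells 23.5% of all tested genes rose and 22.1% fell. Mxi1, a Myc antagonist, rose by 1.47 ± 0.30 and 1.99 ± 0.33 on the log2 scale, and Kdm3a, a histone demethylase, by 0.96 ± 0.14 and 0.79 ± 0.14. Ndrg1, a stress-response gene, rose by 1.21 ± 0.26 and 1.54 ± 0.27, and Plin2, a lipid-droplet coat protein, by 0.82 ± 0.16 in both genotypes. No glycolysis member outside Pfkfb3 and Pdk2 rose with them past the threshold.

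Of 21 regulators of glycolysis genes, 3 rose and 6 fell in wild-type cells and 6 rose and 7 fell in Mirc11-/- cells. Myc, a transcription factor that raises glycolytic genes in growing lymphocytes, had 70.3, 67.2 and 75.3 CPM in unstimulated and 29.3, 44.9 and 29.1 CPM in stimulated wild-type cells. Myc in Mirc11-/- cells was at 70.8, 65.5 and 73.1 CPM and then 22.9, 20.6 and 21.6 CPM. It fell by 1.04 ± 0.14 and 1.68 ± 0.14 on the log2 scale, and its relative Mycn by 3.14 ± 0.19 and 3.54 ± 0.20. Srebf2, the master regulator of cholesterol synthesis, fell by 0.75 ± 0.09 and 0.87 ± 0.09. Between genotypes Myc was lower in stimulated Mirc11-/- cells (-0.66 ± 0.14, edgeR adjusted p = 0.0142), without overlap. So were Scap (-0.35 ± 0.08), the escort of SREBP proteins, and Epas1, which encodes HIF-2 alpha (-0.94 ± 0.20). Epas1 was also lower without stimulation (-1.18 ± 0.20, edgeR adjusted p = 0.0153), where Nfe2l2, the regulator of antioxidant genes, was higher (0.43 ± 0.09). Egln3, a HIF prolyl hydroxylase of the hypoxia-inducible list, was lower there by -4.58 ± 0.93 (edgeR adjusted p = 0.0401).

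The citric acid cycle list (18 tested) had 6 falls in wild-type and 10 in Mirc11-/- cells, with no rise. Idh3a fell by 0.72 ± 0.10 and 0.81 ± 0.10 on the log2 scale, and Acly, which exports citrate carbon to lipids, by 0.53 ± 0.10 and 0.76 ± 0.10. Ogdh fell by 0.49 ± 0.10 and 0.54 ± 0.10. Dlst fell by 0.44 ± 0.08 in Mirc11-/- cells, and its wild-type value was -0.19 ± 0.08. Among other pyruvate dehydrogenase and pyruvate entry genes (7 tested), 1 rose and 3 fell in wild-type cells and 1 rose and 4 fell in Mirc11-/- cells. Pdp2, a phosphatase that opposes the Pdk kinases, fell by 0.90 ± 0.09 and 1.06 ± 0.09, Pcx (pyruvate carboxylase) by 1.19 ± 0.17 and 1.54 ± 0.19, and Pdp1 by 0.48 ± 0.09 and 0.62 ± 0.10. Pdpr, which lowers the activity of that phosphatase, rose by 0.71 ± 0.11 and 0.61 ± 0.11. Opposite directions were thus measured for Pdk2 and Pdp2, which act oppositely on pyruvate dehydrogenase.

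Of 13 tested lactate export partners and NADH shuttle genes, 1 rose and 4 fell in wild-type cells and 2 rose and 7 fell in Mirc11-/- cells. Emb (embigin), an ancillary protein of monocarboxylate carriers, had 21.7, 24.8 and 15.03 CPM before and 64.0, 55.6 and 49.0 CPM after stimulation of wild-type cells. In Mirc11-/- cells it had 22.6, 20.5 and 18.4 CPM and then 74.1, 80.3 and 75.3 CPM. It rose by 1.46 ± 0.15 and 1.90 ± 0.16 on the log2 scale, opposite to the fall of Slc16a1. Gpd2 (the glycerol phosphate shuttle) fell by 0.84 ± 0.08 and 1.12 ± 0.08, and Got1 (the malate aspartate shuttle) by 0.77 ± 0.13 and 1.15 ± 0.13. In stimulated cells Gpd2 (-0.50 ± 0.08), Got1 (-0.51 ± 0.13) and Mdh2 (-0.41 ± 0.10) were lower in Mirc11-/- than in wild-type cells.

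Other pentose and ribose phosphate genes (8 tested) had 2 falls in wild-type cells and 1 rise and 3 falls in Mirc11-/- cells. Prps1 and Prps2, which turn ribose 5-phosphate into the nucleotide precursor, fell by 0.99 ± 0.14 and 0.34 ± 0.11 in wild-type and by 1.13 ± 0.15 and 0.57 ± 0.11 in Mirc11-/- cells, beside the fall of Rpia. Rbks (ribokinase) rose by 0.54 ± 0.17 in Mirc11-/- cells, and its wild-type value was 0.00 ± 0.16. In the other glycolysis isoenzymes (13 tested) 3 fell in wild-type and 6 in Mirc11-/- cells. Eno3 fell by 0.80 ± 0.13 and 1.23 ± 0.13 and Adpgk by 0.40 ± 0.11 and 0.60 ± 0.11. Tigar, which lowers fructose 2,6-bisphosphate, fell by 0.70 ± 0.11 in Mirc11-/- cells (wild-type value -0.24 ± 0.10) and was lower there than in stimulated wild-type cells (-0.53 ± 0.11). The symbol Pgm1 of the table, a phosphopentomutase gene that RefSeq calls Pgm2, fell by 0.36 ± 0.13 and 0.47 ± 0.13.

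The serine, hexosamine and sugar branch list (14 tested) had 3 rises and 6 falls in wild-type and 9 falls in Mirc11-/- cells. Shmt1 fell by 1.36 ± 0.14 and 1.56 ± 0.15 on the log2 scale and Gfpt1, the entry to hexosamines, by 0.93 ± 0.10 and 0.95 ± 0.10. Psat1 fell by 0.90 ± 0.15 and 1.20 ± 0.15 and Shmt2 by 0.71 ± 0.13 and 1.09 ± 0.13. In stimulated cells Psph (-0.56 ± 0.16), Uap1 (-0.52 ± 0.12) and Sord (-0.61 ± 0.13) were lower in Mirc11-/- cells. Among 16 NADPH and thiol defence genes 1 rose and 4 fell in wild-type cells and 1 rose and 7 fell in Mirc11-/- cells. Srxn1 rose by 0.75 ± 0.08 and 0.71 ± 0.08, Gsr (glutathione reductase, an NADPH user) fell by 0.67 ± 0.10 and 0.88 ± 0.10, Slc7a11 fell by 0.89 ± 0.14 and 0.37 ± 0.14, and Prdx1 by 0.43 ± 0.11 and 0.79 ± 0.11. Hmox1 was lower in stimulated Mirc11-/- cells (-0.92 ± 0.15). Of 12 glycogen genes 3 rose and 1 fell in wild-type and 2 rose and 1 fell in Mirc11-/- cells. Phka2, a regulatory subunit of phosphorylase kinase, rose by 0.41 ± 0.09 and 0.32 ± 0.09. Pygb rose by 0.39 ± 0.10 in wild-type cells, with 0.21 ± 0.10 in Mirc11-/- cells. Gyg (glycogenin) fell by 0.35 ± 0.12 in Mirc11-/- cells, with -0.04 ± 0.11 in wild-type cells. No gene of the 10 lists passed in the interaction. The most abundant gene of each list had differences between -0.38 (Pgls) and -0.16 (Hif1a) there. For Mirc11 loss in lists with no call, the most abundant genes lay between -0.21 (Gpd2) and 0.10 (Txn1) without stimulation. With stimulation they were Pgls (-0.48), P4hb (-0.48), Pygb (-0.33) and Acly (-0.24).

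Counting limits the reading of some members. Eno1 has 2 near-identical copies that hold 6.89% of the counts of the gene and its copies. Only its fall on stimulation of Mirc11-/- cells is given with them added. Gapdh has 42 near-identical copies in the annotation that hold 27.4% of the counts of the set, Pgk1 has 2 with 23.4%, and 54.7% of the 31-base words of Pgk1 occur in other genes. Pgam1 has 1 copy with 10.3% and Mpc1 has 1 with 8.30%. On the same strand, Pkm overlaps Gm49759 (7417 counts) and Slc16a1 overlaps Gm43581 (687 counts), among others. G6pdx, Pfkp, Pfkm, Gapdh, Rpe, Tpi1, Pgm2, Pdha1 and Aldoa overlap a protein-coding gene on the other strand, which held few counts for Pdha1 (146) and Aldoa (17), and without a stated strand setting their reads cannot be told apart.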

How the data were processed

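Per the labels, polyadenylated RNA of 12 NK cell cultures was sequenced from Illumina TruSeq libraries. Per the submitters' processing notes, bcl2fastq, Trim Galore 0.4.1, Bowtie2 2.2.8, RSEM 1.3.0 and the GRCm38 build were used. The authors made the deposited values, expected counts per gene, with RSEM, and deposited them as whole numbers, not scaled between libraries. The annotation release and strand setting are not given in the sources used here. The members, gene lists and rule for named genes were chosen with earlier results of these data known.

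Low genes were removed by group (filterByExpr). All 12 libraries entered 1 robust glmQLFit of edgeR 4.0.16 (R 4.3.3) with TMM scaling. The script was tested on simulated data. P values are two-sided and adjusted by Benjamini-Hochberg over 17457 genes, with a threshold of 0.05. CPM are given per library or as ranges, and fold changes as log2 ± SE of the fit. Alternatives were RLE factors, no composition factor, other filters, DESeq2 1.42.0, only the 2 groups compared, a replicate block, the vomeronasal level as covariate, a minimum fold of 1.5, summing with copies, and leaving out each library. Same-numbered wild-type libraries deviated together (correlations 0.134, 0.291 and 0.164 across genes). Unstimulated wild-type replicate 3 and unstimulated Mirc11-/- replicate 2, which share no number, reached 0.267. These correlations therefore do not show whether the numbers pair the libraries. Exon lengths and untranslated regions came from GENCODE vM21, which gives GRCm38 coordinates. Promoters and microRNAs came from RefSeq, and all 36 members matched a promoter. All members were named. Values in every library are given for members with a called change of at least 1.5-fold and for Hk2, Pfkl, Pfkp, Pkm, Ldha and G6pdx, with ranges or values for the rest. In each list up to 3 called genes with the smallest p are named per contrast, except 1 gene that is not reported here. Libraries held 15139281 to 25342991 counts, and limits from a count of 0 cover counting error only.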

Additional observations from a re-analysis of the deposited data

How the results depend on the processing

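The counts of members called were recomputed under 22 alternatives (21 for the difference of responses). For stimulation of wild-type cells (5 members called) the count was 9 with the vomeronasal covariate and 3 against a fold of 1.5. For stimulation of Mirc11-/- cells (12 called) it was 1 and 5 under these settings. The covariate also turned directions: Eno1 was at 0.81 in wild-type cells, and in Mirc11-/- cells Hk2 was at 0.34, Pfkp at 0.50, Eno1 at 1.14, Ldha at 0.72, Pdha1 at 0.32, Tkt at 0.45 and Taldo1 at 0.37. Slc16a1 for Mirc11 loss in stimulated cells was at 0.0313. For Mirc11 loss without stimulation (0 called) the fit of only the 2 groups called 2. For Mirc11 loss in stimulated cells (1 called) the count was 3 without a filter, 10 with DESeq2, 0 with only the 2 groups, 0 with the covariate, 0 against a fold of 1.5, and 0 to 15 when 1 library was left out. The replicate block gave 5, 13, 0, 0 and 3 calls for the 5 comparisons in the order above, with the difference of responses in the third place. In wild-type cells it changed no call. In Mirc11-/- cells the correlations of same-numbered libraries were 0.104, -0.081 and 0.205, and pairing by number was not shown in either genotype. RLE factors changed no call of a member in any comparison. The cause of these changes was not tested. Eno2 and Ldhb, with at most 14 and 9 counts in a library, were not tested.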
